A study of Mus musculus with 2 samples.

Results

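Short introns are the stretches of 50 to 100 nt that the splicing machinery removes from a transcript, and 8174 of them were followed in the central nervous system of mouse embryos. They were chosen by 4 properties of the deposited junction list: annotation in the gene set, a length of 50 to 100 nt, at least 10 reads in each of 2 replicates, and an irreproducibility score between the replicates of at most 0.1. The score is the authors' own and does not mean that the counts are alike, since introns with very unequal counts, such as that of Mylpf with 12 and 2185 reads, also have a score of 0. They are 5.75% of the 142133 annotated introns that passed the same read and score filters, and 10300 annotated junctions of this length were listed in all. The tissue came from C57BL/6J littermates of both sexes at embryonic day 18, with no genetic change or treatment named in the labels, and it forms 1 group of 2 libraries. Poly-A RNA over 200 nt was sequenced as stranded read pairs. The labels call the 2 libraries biological replicates. They do not say how many embryos went into a library, and the spread between the replicates may be partly technical. Length, read counts and score selected the introns and are given below as a description, and no test was made, since introns of 1 group are not replicates of a condition.

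A spliceosome first recognises the donor site at the start of an intron, nearly always GT, and the acceptor site at its end, nearly always AG, with a branch point and a pyrimidine stretch ahead of the acceptor. In long introns the sites are thought to be paired across the exon, and in short introns across the intron itself, which needs a minimum length so that U1 and U2 particles fit side by side. Mammalian short introns often carry runs of G, which bind hnRNP H and F proteins or U1 and promote splicing. Retention of a whole intron in the mature RNA is most often described for short, GC-rich introns.

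The sequences of 1468 of the introns (18.0%) could be read, because a GENCODE M21 transcript has an exon that runs across them. These are therefore introns with a covering transcript form, not a sample of all 8174. Those printed lie outside annotated UTRs, and their coordinates are in GRCm38. Capitals mark the first and last 2 bases and every run of 3 or more G. The first 4 are the readable introns with the most reads: 3 from Eef1a1, the elongation factor that brings aminoacyl-tRNA to the ribosome, on the minus strand of chromosome 9 at chr9:78479193-78479277, chr9:78479535-78479623 and chr9:78480149-78480240, and 1 from Actb, cytoplasmic beta-actin, on the minus strand at chr5:142905477-142905563. The next 5 are the shortest readable ones, shown for how little lies between donor and acceptor: Rnf167 at chr11:70647953-70648014 (plus strand), Inpp5e at chr2:26399349-26399412 (minus), Rnf126 at chr10:79761500-79761564 (minus), Slc27a1 at chr8:71580702-71580766 (plus) and Pop5 at chr5:115238070-115238134 (plus).
Eef1a1, 85 nt: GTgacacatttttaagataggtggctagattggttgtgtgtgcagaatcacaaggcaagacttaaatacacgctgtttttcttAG
Eef1a1, 89 nt: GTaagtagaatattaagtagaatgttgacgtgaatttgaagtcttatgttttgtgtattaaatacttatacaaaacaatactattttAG
Eef1a1, 92 nt: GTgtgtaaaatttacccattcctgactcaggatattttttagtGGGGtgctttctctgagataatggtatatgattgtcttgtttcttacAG
Actb, 87 nt: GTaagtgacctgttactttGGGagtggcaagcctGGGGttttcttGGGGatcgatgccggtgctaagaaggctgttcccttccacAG
Rnf167, 62 nt: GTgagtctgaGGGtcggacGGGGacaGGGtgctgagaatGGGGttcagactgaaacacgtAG
Inpp5e, 64 nt: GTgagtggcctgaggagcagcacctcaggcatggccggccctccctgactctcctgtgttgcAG
Rnf126, 65 nt: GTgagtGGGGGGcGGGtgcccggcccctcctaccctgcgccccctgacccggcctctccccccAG
Slc27a1, 65 nt: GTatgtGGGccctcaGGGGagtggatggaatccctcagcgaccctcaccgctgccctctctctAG
Pop5, 65 nt: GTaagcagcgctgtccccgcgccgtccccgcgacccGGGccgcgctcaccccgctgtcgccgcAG

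The Eef1a1 introns are poor in G and C, at 38.8%, 23.6% and 35.9% GC in the order shown, while Rnf126 and Pop5 reach 80% GC each. Rnf126, a ubiquitin ligase, had 684 reads in R1 and 898 in R2 for its 65 nt intron. Inpp5e, an inositol phosphatase of the primary cilium, had 72 and 116 reads for its 64 nt intron, which holds no run of 3 G. Rnf167, another ubiquitin ligase, had 13 and 22 reads for its 62 nt intron, which holds 4 such runs and took 2.19% and 2.52% of the reads at its splice sites.

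The deposited junction counts are called R1 and R2 here, and they are not tied by any label to the libraries of replicate 1 and 2 that carry the gene and transcript tables. Those libraries held 93979836 and 137012773 expected counts on genes. Junction reads over all detected annotated introns also differed in depth, with a median log2 of R2 over R1 of 0.54. The 4 neuronal genes of the marker list ranged from 218 to 2731 TPM, with Tubb3 at 2731 and 2430 TPM. Of the radial glia genes, Fabp7 stood at 1433 and 1603 TPM and Vim at 367 and 387 TPM. Sox2 was at 39.4 and 37.5 TPM and Pax6 at 22.5 and 24.7 TPM. The libraries stood apart in skeletal muscle and bone genes: the 3 muscle genes looked at ranged from 0.23 to 10.2 TPM in replicate 1 and from 94.4 to 167 TPM in replicate 2, and Ibsp and Col1a1, of bone, from 0.47 to 24.8 TPM in replicate 1 and from 27.9 to 116 TPM in replicate 2. Of epidermis, Krt14 was at 21 and 0.42 TPM and Krt5 at 0.79 and 0.06 TPM. Of red blood cells, Hbb-bs was at 991 and 891 TPM and Hba-a1 at 538 and 346 TPM. In bulk tissue fewer cells of a type and less RNA per cell cannot be told apart.

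The median length of the introns was 86 nt and the most frequent length 82 nt, shared by 381 introns, and 3890 of the 8174 measured 80 to 90 nt. Below 70 nt there were 109, below 65 nt there were 10, and a single one had 50 nt. At the upper limit 211 introns had 100 nt and 202 had 99 nt, and just outside it 218 were 1 nt longer than the limit and 185 were 2 nt longer, so the limit of 100 nt cuts through a continuous distribution. Just outside the lower limit there was only 1 detected intron under 50 nt, of 33 nt. At the read limit 64 introns had exactly 10 reads in their weaker replicate and 95 annotated introns of this length had 9. The score excluded no further intron, its highest value among the 8174 being 0.011. Lengths divisible by 3 made up 31.7% of the short introns and 33.2% of all detected introns.

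**Figure D1:**
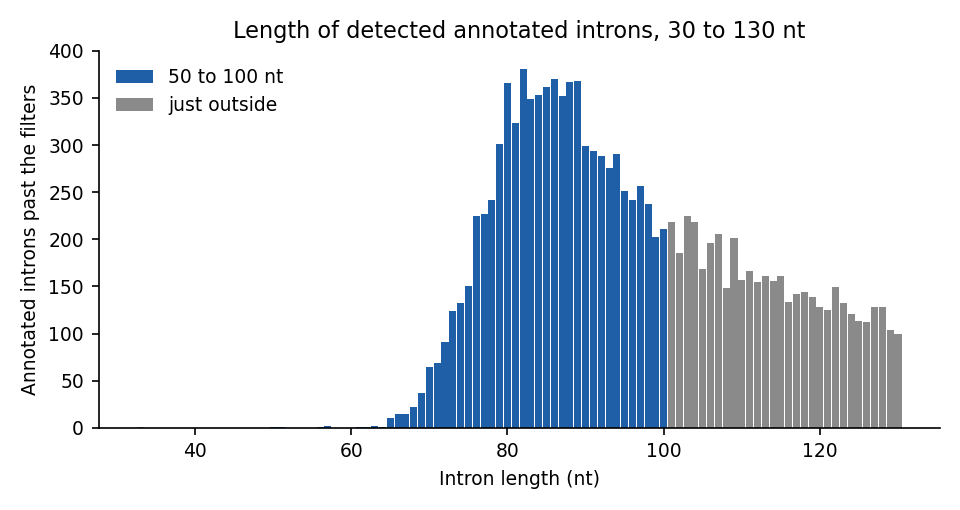
Number of detected annotated introns (y axis) at each length in nt (x axis), with introns of 50 to 100 nt in blue and the neighbouring lengths in grey. Counts climb steeply between 70 and 80 nt, peak at 82 nt with 381 introns, and pass without a step from 211 at 100 nt to 218 at 1 nt above it.

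The 5 shortest introns differed in their part of the junction reads at their splice sites. The 50 nt intron of 2310061I04Rik (chromosome 17, mm9 36029935 to 36029984, minus strand) had 16 and 28 reads, against 825 and 1087 for an annotated acceptor 23 nt farther downstream. The 57 nt intron of Stx4a, a syntaxin of the plasma membrane, had 13 and 19 reads, against 298 and 507 for an acceptor 22 nt farther on. Both were thus a small minority at their donor. The other 3 carried nearly all junction reads at their sites. The 51 nt intron of Hjurp, the chaperone of the centromeric histone CENP-A, had 653 and 1031 reads, 98.5% and 98.7% of those at its sites. This intron was covered by an annotated exon and matched no single GENCODE intron, so its ends could not be read. Its flag C, described further below, was 0. The 56 nt intron of Hnrnph1 (chromosome 11, mm9 50196374 to 50196429, plus strand) had 3113 and 5246 reads, 93.5% and 93.8%, next to 208 and 338 reads for an unannotated acceptor 21 nt farther downstream. The 57 nt intron of Gcdh, a mitochondrial dehydrogenase of lysine breakdown, had 127 and 166 reads, 100% and 98.8%. These shares count junction reads only and leave out unspliced RNA. A transcript with an exon across the Gcdh intron held 14.3 and 16.2 TPM in replicates 1 and 2. Transcripts that splice the Gcdh intron held 11.3 and 10.2 TPM. Hnrnph1 itself encodes hnRNP H1, one of the proteins known to bind G runs in short introns.

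Read counts of the short introns covered more than 3 orders of magnitude. R1 ranged from 10 to 46658 with a median of 215, and R2 from 10 to 63342 with a median of 313.5, against medians of 129 and 189 over all detected annotated introns. The median declined in each longer class, to 182 and 263 for introns over 100 and up to 200 nt, 165 and 238 at 201 to 500 nt, 143 and 207 at 501 to 1000 nt, and 110 and 161 above 1000 nt. The short introns held 9.03% of the R1 reads and 8.86% of the R2 reads of all detected annotated introns. At least 1000 reads were reached by 915 of them in R1 and 1429 in R2.

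The 10 introns with the most reads lay in 4 genes. Eef1a1 gave the first 4, with lengths of 99, 90, 85 and 89 nt. Their reads were 46658 and 63342 at 99 nt, 40933 and 47290 at 90 nt, 36497 and 45636 at 85 nt, and 29463 and 38453 at 89 nt. All 4 took over 99.8% of the reads at their splice sites in both replicates. Actb gave 2, the 87 nt intron printed above with 28713 and 35430 reads and a 95 nt intron with 22207 and 25895. Gnas, the stimulatory G protein alpha subunit, gave 3 neighbouring introns of 98, 81 and 86 nt (chromosome 2, mm9 174170631 to 174171149, plus strand), with 18328 and 25475, 20077 and 30737, and 17475 and 27414 reads. Meg3, a maternally expressed long noncoding RNA of the imprinted Dlk1 region, gave a 100 nt intron with 21671 and 33073 reads. This last one took 94.3% and 94.7% of its splice site reads, and an unannotated junction from a donor 3010 nt away took 4.83% and 4.41%.

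**Figure D2:**
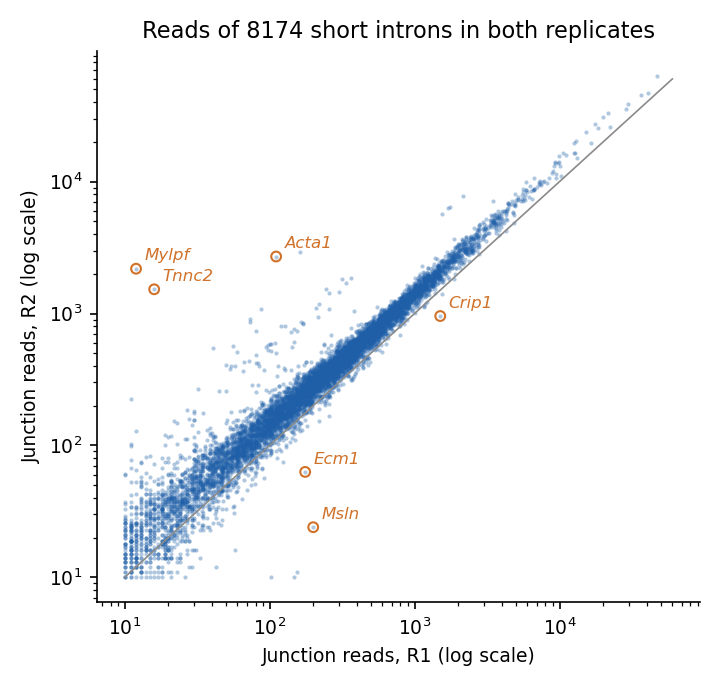
Junction reads of each of the 8174 short introns in R1 (x axis) and R2 (y axis), both on log scales, with the line of equal counts in grey. Most points follow a band above the line, and 6 introns with the most unequal counts are circled and named: Mylpf, Tnnc2 and Acta1 far above it, and Msln, Ecm1 and Crip1 below it.

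The introns lay inside 3719 Ensembl genes on the same strand, and 142 of them lay inside more than 1 gene. With each intron given to 1 gene, there were 3673 host genes, 26.4% of the 13900 genes with any detected intron. Of these 2031 held a single short intron, 372 held 5 or more and 67 held 10 or more. Host genes had a median of 13 detected introns against 6 in the other genes. Their median level was 30.1 and 29.1 TPM in replicates 1 and 2, against 16.0 and 15.7 TPM for the other genes with a detected intron. The share of detected introns that were short was lowest on chromosome 13, at 2.44%, and reached 9.99% on chromosome 17 and 12.2% on the Y chromosome, where it rests on 10 of 82 introns.

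Cpsf1, the largest subunit of the complex that cuts and polyadenylates transcripts, had the most: 28 of its 36 detected introns were short (chromosome 15, mm9 76426239 to 76438021, minus strand), and 11 of them followed each other without a longer one. Their reads ranged from 232 to 869 in R1 with a median of 499, and from 311 to 1200 in R2 with a median of 715, against medians of 396.5 and 515 for its 8 longer introns. Lama5, the laminin alpha-5 chain of basement membranes, had 26 of 58, with only 10 to 88 reads in R1 and 10 to 110 in R2. Abca2, a lipid transporter of myelinating cells, had 23 of 48, with median reads of 280 and 324. Sbf1, a myotubularin-type pseudophosphatase, Flna, the actin crosslinker filamin A, and Stab1, a scavenger receptor of endothelial cells and macrophages, had 21 each. Flna reads were the highest of the 6, from 529 to 2800 in R1 and from 746 to 4578 in R2. Stab1 reads ranged from 38 to 154 and from 24 to 315, with median reads of 102 and 136 in its short introns, against 39.0 and 42.0 in its longer ones.

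Bop1, a factor of ribosome maturation, had the longest run: all 12 of its short introns followed each other, with 487 to 1183 reads in R1 and 770 to 1749 in R2. Runs of 5 or more were found in 40 host genes. Next to another short intron in some transcript lay 2649 of the 8174 (32.4%), separated by 1623 different exons with a median length of 119 nt. H19, a maternally expressed noncoding RNA, was the only gene with 4 or more detected introns of which every one was short. Its 4 introns of 78 to 88 nt had 1551 to 2175 reads in R1 and 5637 to 7736 in R2, next to 185 and 458 TPM of the gene in the libraries of replicate 1 and 2.

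Position within the transcript differed from that of long introns. In every Ensembl transcript that has them, 280 of the short introns (3.42%) were the first intron, against 12.1% of the introns over 1000 nt and 9.51% of all. They were the last intron in 8.47%, against 8.60% and 8.99% in those same sets. The share of first introns was 4.86% for introns over 100 and up to 200 nt, 6.81% at 201 to 500 nt and 6.50% at 501 to 1000 nt. A low share was thus not particular to short introns. Introns whose position differed between transcripts count as neither first nor last. These made up 19.9% of the short introns, 13.99% of the introns over 1000 nt and 15.47% of all. The exons on both sides were similar in size across classes: the median upstream exon measured 116.5 nt and the median downstream exon 121 nt next to short introns, and 126 nt and 130 nt next to all detected introns.

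Within their own gene, short introns gave slightly more junction reads than the other introns. The log2 ratio of an intron's reads to the median of the other detected introns of its gene had a median of 0.10 in R1 and 0.11 in R2 over 8136 short introns, against 0.00 in both over all introns. For introns over 100 and up to 200 nt that median was 0.07 in both, and at 201 to 500 nt 0.02 and 0.03. It was 0.04 in both at 501 to 1000 nt and -0.04 in both above 1000 nt. The small excess was thus not particular to short introns. The ratio was above 0 in both replicates for 50.3% of the short introns and 43.2% of all introns. It was at least 2-fold below in both for 5.90% and 10.4%. Several introns of 1 gene enter this ratio together and the same reads serve as the base for each other.

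The extremes were ranked only among introns of genes with at least 5 other detected introns. Spcs1, with fewer, lies outside that ranking at log2 ratios of -6.88 in R1 and -7.07 in R2. At the low end of the ranking, the 95 nt intron of Hnrnpa2b1 had 53 and 138 reads, against medians of 6220.5 and 9375 for the 12 other introns of that gene, which encodes an hnRNP. Hnrnpm, Ehmt2, Luc7l3 and Smarcd3 followed, with log2 ratios between -5.05 and -5.90 in R1 and between -6.01 and -6.72 in R2. At the high end, 2 introns of Eif5a, the hypusinated translation factor, had 5998 and 8364 reads at 95 nt and 5428 and 7171 reads at 86 nt, against medians of 104 and 157 for the other 11. The high ratios of Fkbp1a, Rpl7 and Fbl ranged from 4.95 to 5.38 in R1 and from 3.46 to 4.67 in R2. In Fbl, which encodes the rRNA methyltransferase fibrillarin, the base was 28.0 reads in R1 and 143 in R2. It was 72 and 116 reads in Fkbp1a and 192 and 826 in Rpl7. The high ratios, those of Eif5a included, were thus taken against low medians of the other annotated introns of the gene. Why those introns had few reads was not tested.

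The share of an intron in all reads at its donor and acceptor is called its use below. It counts every other junction that shares one of its splice sites. Median use of the short introns was 99.95% in R1 and 99.88% in R2, against 99.61% and 99.51% over all detected annotated introns. Use was at least 99% in both replicates for 5480 short introns (67.0%), and 2915 had no other junction at either site. It was under 90% in both replicates for 517 of the 8174 (6.32%), against a background of 16.0% of the 142133 annotated introns (22713). The share was 10.5% for introns over 100 and up to 200 nt, 13.5% at 201 to 500 nt, 13.2% at 501 to 1000 nt and 18.9% above 1000 nt. Among the short introns themselves it was 12.8% at 50 to 69 nt (14 of 109), 6.08% at 70 to 79 nt, 5.29% at 80 to 89 nt and 7.52% at 90 to 100 nt. Use was under 50% in both replicates for 190 and under 10% for 59.

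The strongest other junction of these 517 used another acceptor in 299 and another donor in 218, and it was annotated in 291. The other site was close by in many. It lay within 30 nt in 166 of the 517 (32.1%), against 27.7% of the 1168 introns over 100 and up to 200 nt, 18.6% at 201 to 500 nt, 16.5% at 501 to 1000 nt and 11.1% above 1000 nt. A distance over 1000 nt was found in 148 (28.6%), against 27.3%, 28.3%, 32.2% and 61.5% in those classes. By far the most frequent distance was 3 nt between acceptors, with 60 introns at 42 donors (11.6%), against 8.65%, 6.14%, 6.19% and 4.38% in the 4 longer classes. Where both acceptors of a pair were past the filters, each counts as an intron of its own. Acceptors 4 nt apart came next with 10, and donors never reached more than 5 introns at a single distance within 30 nt.

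**Figure D3:**
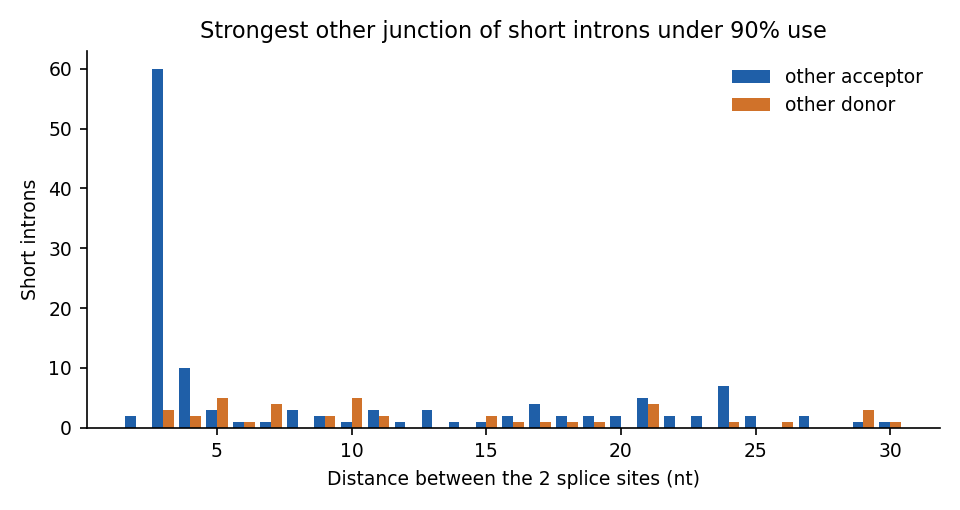
Number of short introns under 90% use in both replicates (y axis) by the distance in nt between their own splice site and that of the strongest other junction (x axis, 1 to 30 nt), for another acceptor in blue and another donor in orange. Another acceptor 3 nt away stands out with 60 introns, against 10 at 4 nt.

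Pairs of acceptors 3 nt apart, known as NAGNAG acceptors, add or drop 3 bases of the message. All 10 introns of such pairs that could be read had AG at both acceptors, and in all 60 the other intron was longer for 30 and shorter for 30. Use moved little between the replicates, with a median difference of 1.93 percentage points, although the largest difference was 19.1 points. The pairs of Ncln, a subunit of the nicalin complex of the endoplasmic reticulum (chr10:81488356-81488427, minus strand), and Camsap3, a microtubule minus-end protein (chr8:3602280-3602370, plus strand), are shown with capitals at the donor and at both acceptors. These 2 were the most read pairs whose sequence could be shown and were picked after their values were seen.
Ncln, 69 and 72 nt: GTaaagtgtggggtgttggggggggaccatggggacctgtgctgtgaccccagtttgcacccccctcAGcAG
Camsap3, 88 and 91 nt: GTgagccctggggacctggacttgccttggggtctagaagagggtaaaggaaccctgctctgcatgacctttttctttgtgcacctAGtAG

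In Ncln the upstream acceptor had 392 and 468 reads and the downstream one 147 and 203, so the upstream site took 72.7% and 69.8% of the reads of the pair. In Camsap3 the balance lay the other way, with 176 and 157 reads upstream and 329 and 382 downstream, a share of 34.9% and 29.1% for the upstream site. The 8 most read pairs of all, also named after their values were seen, ranged from mostly downstream to mostly upstream use. Ssb, the La protein that binds new polymerase III transcripts, used the upstream acceptor in 92.9% and 94.5% of the pair's reads. Rbm39, a splicing factor, did so in 94.0% and 94.7%. Bag6, a chaperone of tail-anchored proteins, had 38.8% and 40.7% of the reads upstream, and Pgam5, a mitochondrial phosphatase, had 44.0% and 45.1%. Hook2, a linker of dynein to its cargo, had 77.8% and 78.5% upstream. The downstream acceptor also took most reads in Sppl2b, an intramembrane protease, with 31.3% and 30% upstream, in Dgkz, a diacylglycerol kinase, with 26.6% and 25.7%, and in Ydjc with 10.1% and 9.95%.

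The 8 introns with the lowest use among those with at least 50 reads at their sites took under 2% in each replicate. Spcs1, a subunit of signal peptidase, had 21 and 28 reads for its 83 nt intron, against 2469 and 3761 for an acceptor 4 nt upstream, a use of 0.84% (95% exact binomial interval 0.52 to 1.28) and 0.74% (0.49 to 1.06). Hnrnpa2b1 used its 95 nt intron in 1.06% (0.80 to 1.39) and 1.73% (1.46 to 2.04), against 4941 and 7832 reads from a donor 2280 nt farther upstream. These intervals cover counting error only. The sequences of both follow, because in Spcs1 the preferred AG and the rare one can be read side by side. Capitals mark the ends and, in Spcs1, also the preferred AG inside the intron (chr14:31000761-31000843 and chr6:51467296-51467390, both minus strand).
Spcs1, 83 nt: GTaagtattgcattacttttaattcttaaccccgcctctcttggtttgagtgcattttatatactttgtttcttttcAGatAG
Hnrnpa2b1, 95 nt: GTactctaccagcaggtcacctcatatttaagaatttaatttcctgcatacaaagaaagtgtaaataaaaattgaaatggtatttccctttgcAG

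The other 6 followed the same pattern with an annotated stronger junction. Ehmt2, a histone H3 lysine methyltransferase, had 23 and 31 reads against 1985 and 2810 from a donor 35 nt upstream. Adamts10, a secreted metalloprotease, had 13 and 12 against 738 and 1218 at an acceptor 16 nt downstream. Luc7l3, a U1-associated splicing factor, had 19 and 14 against 896 and 1539 at an acceptor 23 nt downstream. In Hras, the small GTPase, 26 and 63 reads stood against 2146 and 3328 that ran to an acceptor 569 nt downstream. B4galt2, a galactosyltransferase, had 11 and 12 against 679 and 757 at an acceptor 35 nt downstream, and Gm16286 had 20 and 22 against 2456 and 3591 from a donor 160 nt upstream.

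Reads that run across a short intron were looked at through annotation, contigs and transcript levels. An Ensembl exon covered 1099 of the 8174 short introns from end to end (13.4%), against 11.1% for introns over 100 and up to 200 nt, 8.42% at 201 to 500 nt, 3.57% at 501 to 1000 nt and 0.93% above 1000 nt. A deposited contig, a stretch of continuous read coverage on mm9, spanned 7441 of them (91.0%), against 85.3%, 78.8%, 65.9% and 38.2% in the longer classes. A contig that spans an intron says nothing of how deep the coverage inside it is. Both shares need cover from end to end, which is harder to reach in a longer intron, so they do not measure retention.

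Transcript levels gave a share for 1020 short introns. Of the 8174, 7132 (87.3%) matched exactly 1 GENCODE intron of the same gene and length, and for each the TPM of transcripts with an exon across the intron was set against the summed TPM of those transcripts and the ones that splice it. This covering share had a median of 10.2% in replicate 1 and 10.4% in replicate 2, with quartiles of 4.01% and 23.7% in replicate 1 and of 4.25% and 23.9% in replicate 2. It reached 10% or more in both libraries for 489 of the 1020 (47.9%), a proportion near the background of 51.4% over all 5537 introns with such a share. Matching transcripts of the same version only, an alternative chosen after seeing the data, moved the median as the mean of both libraries to 28.2%, against 10.3%, and 264 of 391 short introns (67.5%) then reached 10%, against a background of 69.6%. Medians were 12.5% and 12.4% for introns over 100 and up to 200 nt and 8.57% and 8.20% above 1000 nt. Among the short introns the 38 of 50 to 69 nt had the highest medians, 21.1% and 20.8%, and those of 80 to 89 nt had 9.42% and 8.98%. The 116 with a use under 90% in both replicates had medians of 29.6% and 29.5%, against 8.95% and 9.03% for the 881 at 90% or more in both.

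**Figure D4:**
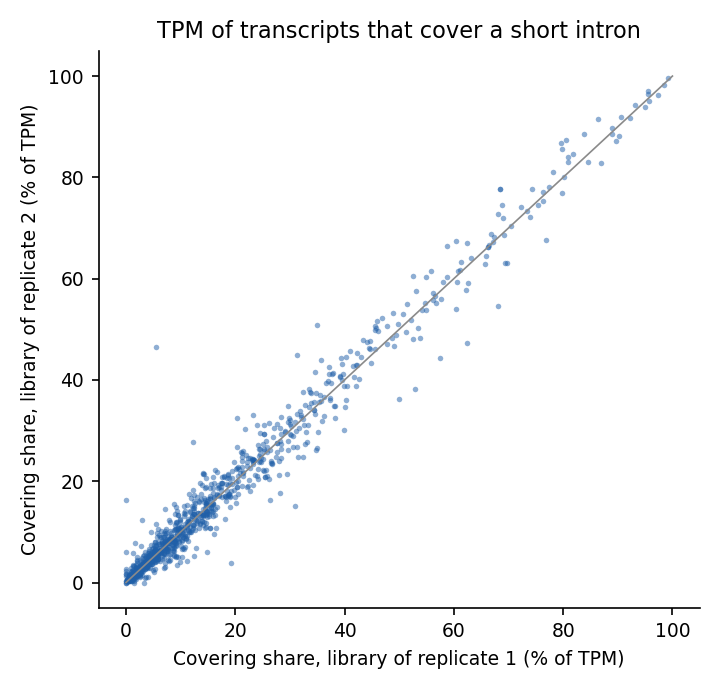
Covering share of 1020 short introns in percent of TPM in the library of replicate 1 (x axis) and replicate 2 (y axis), with the line of equal shares in grey. Points follow the line, with a median difference of 1.12 percentage points between the libraries, and 83 lie at 50% or more in both.

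The libraries gave like shares for most introns, and 95% differed by no more than 6.06 points. The covering transcripts were all annotated as retained intron for 773 of the 1020, and the rest were covered also or only by other transcript types, in which the intron can be part of a coding or terminal exon. The share leaves out transcripts that splice through another site, so it can be high where the intron itself is rarely used. Luc7l3 had the highest, 99.2% and 99.6%, from 89.5 and 89.2 TPM of a protein-coding transcript with an exon across the intron and 0.72 and 0.36 TPM of the transcript that splices it. Dusp7, a phosphatase of ERK kinases, had 98.4% and 98.2%, and only 10 and 17 junction reads.

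Ip6k2, an inositol hexakisphosphate kinase, followed with 97.3% and 96.2%, from 72.1 and 69.4 TPM of a retained-intron transcript. Ankrd13b, an ankyrin repeat protein, had 95.8% and 95%, again from retained-intron transcripts, at 54.1 and 46.8 TPM. Its 80 nt intron had 30 and 33 reads, while 1282 and 1465 reads ran from the same donor to an acceptor 32 nt downstream. Paxx, a factor of DNA end joining, had 93.2% and 94.2%, with 30 and 57 reads and a use of 55.6% and 60.6%. Mrpl24 with 95.6% and 96.4%, Ank1 with 95.6% and 97.1%, and Ints3 with 95% and 94% complete the 8 highest. Use differed widely among these 8, from 1.975% and 0.848% in Luc7l3 to 90.9% and 100% in Dusp7 and 100% and 98% in Ints3. Vim, the intermediate filament protein of radial glia, was named outside the ranking. Its 80 nt intron had 2122 and 3664 reads and a use of 100% and 99.9%, beside a covering share of 26.5% and 23.9%. Sequences of the 3 high introns that lie outside annotated UTRs follow, with ends and G runs in capitals (chr9:108798179-108798270, plus strand; chr11:77473201-77473280 and chr2:25460716-25460786, minus strand).
Ip6k2, 92 nt: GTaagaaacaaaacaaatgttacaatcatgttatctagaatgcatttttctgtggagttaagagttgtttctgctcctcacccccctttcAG
Ankrd13b, 80 nt: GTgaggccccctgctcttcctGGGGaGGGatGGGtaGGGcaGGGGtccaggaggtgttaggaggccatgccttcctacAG
Paxx, 71 nt: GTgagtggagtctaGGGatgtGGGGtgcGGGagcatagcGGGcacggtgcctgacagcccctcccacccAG

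The 3 differ widely in base composition, with 37.0% GC in Ip6k2, 65% in Ankrd13b and 67.6% in Paxx, and Ip6k2 holds no GGG. Over the 1468 readable short introns GC content had a median of 57.5%, with a 10th percentile of 40.7% and a 90th of 67.4%. The medians were 55.1% for 1690 readable introns over 100 and up to 200 nt, 51.9% for 2186 of 201 to 500 nt and 47.8% for 1273 of 501 to 1000 nt. The lowest among the short introns was 17.4%, in a 69 nt intron of Ddx3y, and the highest 86.5%, in a 96 nt intron of Dgcr6.

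GGG was counted at every position of the intron on the transcript strand, with overlapping matches counted apart. The short introns had a median of 2.88 per 100 nt, against 2.80, 2.30 and 1.70 in the 3 longer classes. CCC, counted the same way, had 2.50 per 100 nt, against 2.40, 2.09 and 1.58, so both triplets declined with length as GC content did. At least 1 GGG was found in 77.0% of the short introns and in 89.4%, 96.5% and 99.4% of the longer classes, in which there is more room for one. First introns among the readable short ones had a median of 63.9% GC and 4.21 GGG per 100 nt (127 introns), against 57.0% and 2.63 in the 843 internal ones. Those of 50 to 69 nt had 60.6% GC and 4.41 GGG per 100 nt (47 introns). Pyrimidines made up a median of 76.5% of the 17 bases that precede the last 3, in the short introns as in each longer class.

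**Figure D5:**
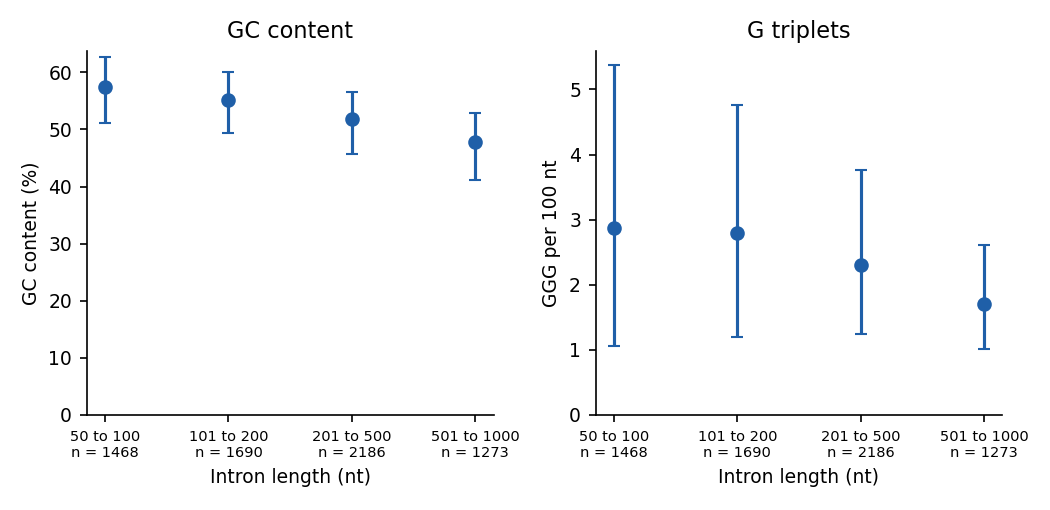
Median GC content in percent (left) and GGG per 100 nt (right) of readable introns in 4 length classes (x axis), with bars from the first to the third quartile over introns. Medians decline from 57.5% to 47.8% GC and from 2.88 to 1.70 GGG per 100 nt as length increases, and the quartile bars of neighbouring classes overlap.

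Ends other than GT and AG were rare. Of the 1468 readable short introns 1466 had GT and AG, 2 had GC and AG, and none had AT and AC. One of the 2 lies in Nr1h2, the liver X receptor beta, with 198 and 305 reads at 100 nt. The junction list carries a flag C whose meaning is not given in the sources used here. It was 0 for both introns with GC and for all 22 readable introns of up to 1000 nt with ends other than GT and AG. No longer intron was read. Among the 8174 the flag was 0 for 22, of which 20 lie on the minus strand.

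Between the replicates the short introns behaved like other introns. Their median log2 of R2 over R1 was 0.51, with a 5th percentile of 0.00 and a 95th of 1.11, and 2.91% lay at least 2-fold from that median, against 2.64% of all detected introns from theirs. Of these, 168 were higher and 70 lower in R2. The 3 highest ratios belonged to muscle genes: Mylpf, a myosin light chain, had 2185 reads in R2 and 12 in R1, Tnnc2, fast troponin C, had 1526 and 16, and Acta1, skeletal actin, had 2704 and 111. In the gene tables the same 3 stood at 166, 82.6 and 167 TPM in replicate 2 and at 1.40, 1.08 and 10.2 TPM in replicate 1. The 3 lowest were Msln, mesothelin, with 24 reads in R2 and 200 in R1, Ecm1, an extracellular matrix protein, with 63 and 176, and Crip1, a LIM protein, with 957 and 1504. Their genes stood at 0.67, 10.4 and 50.2 TPM in replicate 2 and at 16.7, 45.0 and 111 TPM in replicate 1. The part of other tissues in these counts was not tested.

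The factors known to act on short introns or their sites were all expressed. Of the 13 in the list, Hnrnph1 was the highest, at 421 and 391 TPM in replicates 1 and 2, and Hnrnph2 and Ptbp1 the lowest, at 65 and 65.8 TPM and at 70.1 and 64.1 TPM. Snrnp70, the U1 70K protein, stood at 298 and 267 TPM, U2af2, the large subunit of the factor that binds the pyrimidine stretch, at 255 and 236 TPM, and Hnrnpf at 166 and 163 TPM. Sf1, which binds the branch point, differed most in proportion among those named here, with 108 and 82.0 TPM. These genes hold 14 short introns themselves, 4 of them in Ptbp1 and 3 in Hnrnph1. Use was under 98% in both replicates for only 2 of the 14, the 56 nt intron of Hnrnph1 described above and its 91 nt intron, with 92.9% and 94.7%. The 87 nt intron of Ptbp2, the neuronal counterpart of Ptbp1, had 977 and 1521 reads and a use of 100% and 99.9%.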

How the data were processed

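Junction read counts of 2 replicates (R1 and R2), their sum and an irreproducibility score were deposited on mm9 in a table of the whole series, with contigs and a signal level deposited per contig. Genes and exons on mm9 are those of Ensembl release 65, per the file headers, and their deposited score was not used beyond positions. The tables of each library, deposited on mm10, list expected counts, TPM and FPKM of genes and of transcripts. Their read-me texts name GENCODE M4. No source used here names the aligner, or the program that estimated these levels. Intron lengths are BED end minus start, and 1-based starts are BED start plus 1, checked against exon ends.

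A host gene contains the intron on its strand, and exon ends of a gene decided where several did. Introns of mm9 were matched to GENCODE M21 introns on GRCm38 by gene and exact length, only where 1 intron of the gene had that length, with the same chromosome and strand. No coordinates were moved between builds. Intron sequences came from M21 transcripts with an exon across the intron, and were read only for introns of up to 1000 nt. The covering share needs a summed TPM of at least 1 in both libraries, and at least 5 for named introns. Transcripts were matched by ID without the version, a choice made after seeing the values. Depth limits precision, and 95% exact Clopper-Pearson intervals cover counting error only.

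Named introns are the 10 with the most reads, the 5 genes with the most short introns (6 with ties), the 5 shortest, the 8 of lowest use, the 8 of highest covering share, those with other ends, 3 and 3 extremes of the replicate ratio at 200 or more reads, and 5 and 5 extremes against the gene, among genes with at least 5 other detected introns. The introns and lists were chosen with earlier results of these data known. One intron with other ends is not reported here. The formula for use was run on simulated data. There the competing reads were split equally between donor and acceptor, so recovery of the set shares was fixed in advance and is no test of the formula. Counts, shares and medians were computed with Python 3.11.15, pandas 2.3.3, NumPy 2.4.6 and SciPy 1.17.1.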

Additional observations from a re-analysis of the deposited data

How the results depend on the processing

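Of 34 alternative settings for 12 results, 25 left the value within the limit set for it. The limit was the spread between replicates, 1.5 times for counts, or the 95% binomial interval of the median where there are no replicates. For median reads, median use, covering share and the ratio to the gene, leaving out 1 replicate always stays within that spread by construction. Those settings are among the 25 and say nothing about stability. The number of introns fell to 2102 with an upper length of 80 nt, against 8174, and ranged from 8296 to 8687 without 1 of the replicates. Median use, 99.9% as the mean of both replicates, was 100% when only other junctions with a score of at most 0.1 or only annotated ones were counted. The median covering share, 10.3% as the mean of both libraries, was 9.89% with retained-intron transcripts only, 9.99% at a summed TPM of at least 5, and 28.2% with transcripts of the same version only, an alternative chosen after seeing the data that leaves 391 introns. For the introns with a share, it kept 24.0% of the splicing and 53.4% of the covering transcripts. The count of introns at 10% or more was 264 in that setting, against 489. GGG per 100 nt was 3.92 without the first 6 and last 20 nt, against 2.88. The log2 ratio to the other introns of the gene was 0.091 with other introns over 100 and under 1000 nt, against 0.107. Without 1 of the replicates, median reads ranged from 215 to 313.5, median use from 99.88% to 99.95%, the covering share from 10.2% to 10.4% and the ratio to the gene from 0.10 to 0.11. No paired analysis was possible because there is 1 group. Introns with few reads have wide intervals of use, and levels of covering transcripts depend on how the authors' program split reads between forms.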
